A study of Mus musculus with 6 samples.

Results

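Fragments of transfer RNA (tRNA) bound to Argonaute (Ago) proteins were examined in mouse brain. A sequence was counted as a tRNA fragment when its deposited annotation named a tRNA and named neither a miRNA nor an mRNA. By this rule 3570 of the 65087 unique sequences above 0 in at least 1 sample were tRNA fragments, which is 5.48% of sequences. Another 7 sequences named a tRNA together with a miRNA and were left out. The 3570 sequences were 15 to 30 nt long and carried 62 tRNA names, of which 48 were nuclear, with 3370 sequences, and 14 were mitochondrial, with 200 sequences. Names give the amino acid and the anticodon, so copies of a tRNA gene with the same anticodon were not told apart. A joint name, Lys-CTT/Lys-TTT, held 55 sequences.

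The brains came from 3 WT mice and 3 Tau fragment transgenic (Tau tg) mice, all male, 3 months old and on a C57BL/6J background. The transgene was a piece of the human tau coding sequence driven by the Thy 1.2 promoter, which is active mainly in neurons, and no other allele or agent was given. The deposited protocol states that cortex and hippocampus were combined, while the sample labels name hippocampus. Ago proteins were captured with a GW182 peptide, and RNA of 19 to 35 nt was cut from gels. The table held 998248 to 6879551 reads per sample, Tau tg 1 being the deepest, and 0.968% to 3.93% of these reads were tRNA fragments. Summed miRNA markers of neurons stood at 129096 to 152339 RPM (reads scaled to the library size) in all 6 samples. The liver marker miR-122-5p was at 0 to 28.4 RPM. Markers of choroid plexus ran from 1788 to 8110 RPM, of endothelium from 2369 to 8383 RPM and of oligodendrocytes from 3723 to 7787 RPM. Those of red blood cells ran from 266 to 814 RPM and those of leukocytes from 276 to 520 RPM. In all of these the groups overlapped. The 5 markers of pituitary and epithelium summed to 1940.2, 5218 and 6753 RPM in WT 1, WT 2 and WT 3 and to 1678, 1594 and 1689.8 RPM in Tau tg 1, Tau tg 2 and Tau tg 3, so on these markers the groups did not overlap. The part of these markers in the differences below was not tested.

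A mature tRNA folds into a cloverleaf and ends in CCA, bases that are absent from the tRNA gene in mouse and are added by an enzyme after transcription. Cuts in the T loop release short 3′ fragments that keep the CCA, and cuts in the D loop or the anticodon loop release 5′ fragments. Such fragments can be loaded onto Ago proteins, where the bases after the first one act as a seed that pairs with mRNAs, as in a miRNA. The 6mer seed is made up of read positions 2 to 7. The 6mer seed viability given below is how many percent of the cells of 3 murine lines, on average, stayed viable when an RNA with that seed was brought into them. Seeds with low values are called toxic.

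The most abundant fragments were variants of a single 3′ end, that of tRNA Asp-GTC, the tRNA that carries aspartate. They are shown first because their ends differed by single bases, and the capitals mark the CCA, or in rank 11 the CC that is followed by a T, while ranks 7 and 8 stop before the final A.
Asp-GTC, rank 1: tccccgacggggagCCAt
Asp-GTC, rank 2: tccccgacggggagCCA
Asp-GTC, rank 3: ttccccgacggggagCCA
Asp-GTC, rank 4: ttccccgacggggagCCAt
Asp-GTC, rank 5: tccccgacggggagCCAtt
Asp-GTC, rank 6: tccccgacggggagCCAat
Asp-GTC, rank 7: ttccccgacggggagcc
Asp-GTC, rank 8: tccccgacggggagcc
Asp-GTC, rank 9: tccccgacggggagCCAa
Asp-GTC, rank 10: tccccgacggggagCCAaa
Asp-GTC, rank 11: ttccccgacggggagCCt

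These 11 sequences were the most abundant of all 3570, and a 3′ end of Ala-TGC came 12th. The most abundant sequences of the next tRNAs are shown for their seeds, which are in capitals.
Leu-AAG: aTCCCACcgctgccaccat
His-GTG: tCGAATCcgagtcacggcacca
Ala-TGC: tCCCCGGcacctccacca
Cys-GCA: tCCGGGTgccccctcca
Glu-CTC: tTCCCGGtcagggaacca
Val-CAC: aCCGGGCggaaacacca
Ala-CGC: tCCCCGGcatctccacca
Tyr-GTA: tTCCGGCtcgaaggacca
Pro-CGG: aTCCCGGacgagcccccat

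All 9 of these were 3′ fragments as well, and those of Leu-AAG and Pro-CGG carried a T after the CCA. Some reads were not classed as 3′ fragments by the rule given below. The most abundant of these were 2 sequences of 22 and 23 nt from Glu-CTC and 1 of 23 nt from Asn-GTT. They were chosen after their values were seen and are shown with the seed in capitals.
Glu-CTC, rank 38: tCCCTGGtggtctagtggttagg
Glu-CTC, rank 52: tCCCTGGtggtctagtggttag
Asn-GTT, rank 53: tAACCGAaaggttggtggttcga

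Asp-GTC gave 441 of the 3570 sequences. Its summed level was 2554, 18497 and 17974 RPM in WT 1, WT 2 and WT 3, and 5664, 8953 and 22303 RPM in Tau tg 1, Tau tg 2 and Tau tg 3. The lowest sample was WT 1 and the highest Tau tg 3, and the groups overlapped. Asp-GTC made up 27.5%, 54.7% and 55.5% of tRNA fragment RPM in the WT samples and 42.8%, 41.0% and 58.8% in the Tau tg samples. On the log2(RPM + 1) scale the change from WT to Tau tg was 0.14 (limma, adjusted p = 0.743), with a standard error of 0.229 that the mean-variance trend sets. The 3 WT and 3 Tau tg values on this scale had SDs of 1.64 and 1.01, which alone give the difference a standard error of 1.11, so the fitted error was smaller than the spread between these mice.

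Leu-AAG came second, with 592, 2141 and 1563 RPM in WT 1, WT 2 and WT 3 and 769.8, 1505 and 2015 RPM in Tau tg 1, Tau tg 2 and Tau tg 3. His-GTG, the tRNA for histidine, had 449, 965 and 1059.5 RPM in WT and 281, 817 and 1069.5 RPM in Tau tg. Ala-TGC had 329, 783 and 748 RPM in WT and 325, 992 and 1201 RPM in Tau tg. WT 1 and Tau tg 1 were the lowest samples of their groups in all 3 of these tRNAs, as they were in Asp-GTC. The tRNAs ranked 5th to 10th were Cys-GCA, Glu-CTC, Val-CAC, Ala-CGC, Tyr-GTA and Pro-CGG, with means over the 6 samples of 683, 676, 614, 578, 555 and 508 RPM. Each of the 10 most abundant tRNAs overlapped between the groups, and their log2 changes lay between -0.30 and 0.41 and missed even an unadjusted threshold of 0.05 in limma. Together these 10 tRNAs averaged 19207 RPM, against 24748 RPM for all 62 names.

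Summed over all tRNA fragments, the level was 9296, 33826 and 32360.5 RPM in WT 1, WT 2 and WT 3, and 13228, 21820.3 and 37955 RPM in Tau tg 1, Tau tg 2 and Tau tg 3. The mean over WT was 25161 ± 13759 RPM and the mean over Tau tg 24335 ± 12554 RPM (SD, n = 3 each), and the difference of -826 RPM was far smaller than the spread within either group (exact two-sided permutation test, p = 1, adjusted p = 1). Leaving out WT 1 took the difference to -8759 RPM and leaving out Tau tg 1 took it to 4727 RPM, so its direction was set by single mice. With 3 mice against 3 this test cannot give a p below 0.1. Tau tg 1, the deepest library, held 1698 different tRNA fragment sequences and WT 1 held 872, and 2028 of the 3570 sequences were seen in 1 sample only. Within a library, counting error was small beside these differences, since the 95% Wilson interval of the tRNA fragment share reached at most 0.0362 percentage points to either side. These intervals cover counting error only.

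Most tRNA fragments were shorter than miRNAs. Reads of 17 to 19 nt made up 55.1%, 72.2% and 71.3% of tRNA fragment RPM in the WT samples and 63.9%, 69.0% and 77.2% in the Tau tg samples, and they lay at or below the lower bound of the gel cut. The mean read length, weighted by RPM, was 19.3, 18.8 and 18.6 nt in WT and 19.0, 19.1 and 18.7 nt in Tau tg, which did not separate the groups (exact permutation test, p = 0.9, adjusted p = 1). Over the 6 samples it was 18.9 ± 0.271 nt (SD), and in the same samples miRNA reads averaged 21.7 ± 0.0457 nt and fragments of ribosomal RNA (rRNA) 20.2 ± 0.411 nt. The tRNA fragments were shorter than miRNA reads by 2.38 to 3.14 nt and shorter than rRNA fragments by 0.305 to 2.02 nt in 6 of 6 samples. Both differences had p = 0.03125 (exact sign-flip test over the 6 samples, two-sided, adjusted p = 0.03125 over 4 comparisons), the smallest value this test can give. Without Asp-GTC the difference from rRNA fragments was -0.86 nt with p = 0.0625 in the same exact test.

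At the upper end of the lengths the table holds, 10 sequences were 28 to 30 nt long, of which 1 was a mitochondrial 3′ end with CCA, and together they had 5.62, 4.74 and 2.75 RPM in WT and 4.41, 19.2 and 4.09 RPM in Tau tg. That was 0.0085% to 0.0882% of tRNA fragment RPM, and the shares did not separate the groups (exact permutation test, p = 0.6, adjusted p = 0.9). The table holds no sequence above 30 nt, so 5′ fragments that reach the anticodon loop, which are usually longer, could not be seen. A list of 8 tRNAs known as sources of such long 5′ fragments (Gly-GCC, Gly-CCC, Glu-CTC, Val-CAC, Val-AAC, Lys-CTT, His-GTG and Asp-GTC) summed to 4042 to 25854 RPM, most of it from Asp-GTC. In this list 0 of 8 tRNAs passed an unadjusted p of 0.05 in limma, where 2.24% of all RNA species did, and the log2 changes ranged from -1.46 to 0.29 with a median of -0.07. The median was 0.02 over all 62 tRNA names and -0.35 over the 9893 RNA species tested.

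The 3′ ends could be read base by base. The 8 bases before CCA were taken from the CCA-ended reads of each tRNA. Each form of these bases with at least 5% of the RPM of those reads was kept. A read was counted as a complete 3′ fragment when it held such 8 bases, then CCA, then at most 3 further bases. Reads ending exactly in CCA took 33.7%, 24.1% and 33.7% of tRNA fragment RPM in the WT samples and 24.7%, 19.95% and 26.5% in the Tau tg samples. Reads with 1 to 3 bases after CCA took 33.2%, 49.5% and 41.3% in WT and 43.6%, 53.3% and 55.0% in Tau tg. Other ends had lost part or all of the CCA, or had part of it replaced. With these, 3′ fragments reached 72.7% to 90.4% of tRNA fragment RPM. The remaining 27.3% in WT 1 down to 9.56% in Tau tg 3 had none of these ends. Of all tRNA fragment RPM, 34.0%, 24.3% and 33.7% ended in the letters CCA in WT and 24.8%, 19.98% and 26.7% in Tau tg, a difference of -6.85 percentage points that did not pass the exact permutation test (p = 0.3, adjusted p = 0.9). When reads with added bases were counted too, the difference was 2.54 percentage points in the other direction (exact permutation test, p = 0.7). That definition was added after the data were seen.

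The added bases were mostly T (U in the RNA) and A. A T came directly after CCA in 46.5% to 61.6% of the RPM of reads with added bases, and an A in 31.7% to 45.9%. A single T was the most frequent addition, at 32.5%, 32.3% and 31.4% in WT and 32.0%, 45.9% and 41.1% in Tau tg, and a single C made up 0.144% to 0.882%. Single bases accounted for 48.5% to 58.2% and additions of 3 bases for 6.68% to 13.6%.

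How far additions prevailed differed between mice. For the most abundant Asp-GTC end, rank 1 with the added T had 362, 2835 and 1771 RPM in WT and 743, 2365 and 4373 RPM in Tau tg. The same end without it, rank 2, had 512, 1471 and 3326 RPM in WT and 657, 597 and 2777 RPM in Tau tg. The ratio of the first to the second was therefore 0.707, 1.93 and 0.533 in WT and 1.13, 3.96 and 1.57 in Tau tg, and the groups overlapped. In limma the log2 change was 0.69 for rank 1 and -0.40 for rank 2, with adjusted p = 0.584 for each. Over all tRNAs except Asp-GTC, 43.2%, 50.4% and 53.2% of complete 3′ fragments carried added bases in WT and 53.3%, 63.4% and 56.9% in Tau tg. These values did not overlap, but WT 3 and Tau tg 1 were almost equal, and the measure was chosen after its values were seen, so no test is given. For comparison, 24.0% to 31.9% of miRNA RPM that held a complete RefSeq mature sequence was 1 to 3 nt longer than it, without a check of whether the extra bases were encoded. Whether the added bases arose in the brain or in the preparation of the libraries was not tested.

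Mitochondrial tRNA fragments showed almost none of these additions. In nuclear tRNAs 1018 of 1397 complete 3′ fragment sequences had added bases, which was 52.8% to 73.2% of their RPM. In mitochondrial tRNAs it was 2 of 76 sequences, 3.71% of the RPM in Tau tg 1 and 0% in the other 5 samples. A second search covered the ends of all 22 mitochondrial tRNA genes among all 65087 sequences of any annotation, of which 6603 matched no RNA. It marked an end by the last 8 bases of the GENCODE gene and CCA, not by bases taken from the reads. Its counts therefore need not include those above. It found 91 sequences that ended in CCA, with a summed mean of 202.6 RPM, and 1 sequence with an added base, with a mean of 0.498 RPM. Nuclear tRNAs were not alike in this. Over the summed RPM, the share of complete 3′ fragments with added bases ran from 0.115% in Met-CAT to 77.0% in Leu-AAG. It was 5.43% in Trp-CCA and 16.1% in Ser-GCT, so some nuclear tRNAs also had few additions. The difference between nuclear and mitochondrial fragments was noticed in the data and is given without a test.

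Complete 3′ fragments began at a similar distance from the CCA in many nuclear tRNAs. Without the added bases, 85.6% to 96.2% of their RPM was 17 or 18 nt long, and 77.9% to 91.5% when Asp-GTC was left out. Counted by tRNA over the summed RPM, these lengths held more than 50% in 36 of the 41 nuclear names that had such fragments. In Asp-GTC the 17-nt form, which lacks the first T of the longer one, took 69.0% to 75.2% and the 18-nt form 23.7% to 28.7% in the 6 samples. Leu-AAG was mostly 18 nt, at 66.0% to 87.2%, and Ala-CGC almost wholly so, at 94.2% to 99.2%. His-GTG was an exception, with 66.9%, 45.0% and 34.6% of its 3′ fragments at 22 nt in WT and 40.6%, 40.1% and 24.3% in Tau tg. Its 22-nt read had 150.4, 218 and 142 RPM in WT and 58.2, 178 and 128 RPM in Tau tg, with overlapping groups. Mitochondrial 3′ fragments were spread more widely, with 13.9% to 45.7% at 17 or 18 nt.

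Since the first base of the read sets the seed, the start of the fragment decided which seed it carried. The 2 Asp-GTC forms, which differ by 1 nt at the 5′ end, carried CCCCGA with a 6mer seed viability of 81.5 and UCCCCG with 53.1. The first seed held 19.0% of tRNA fragment RPM in WT 1 and up to 41.9% in Tau tg 3, and the second 7.42% in WT 1 and up to 18.4% in WT 3. CCCCGA is also the seed of 1 RefSeq mature miRNA (GRCm38.p6 annotation), miR-1895, but 98.8% of all RPM with this seed in the table came from tRNA fragments. UCCCAC, carried mainly by Leu-AAG, is shared with miR-188-3p, and 93.8% of its RPM came from tRNA fragments. In 38 nuclear tRNAs both the 17-nt and the 18-nt form were seen. The lead sequence of the 18-nt form had the higher seed viability in 29 of them and that of the 17-nt form in 9, and the median difference was 21.4. Each tRNA counted once whatever its level, and some forms were rare, such as the 17-nt form of Thr-CGT at 0.0237 RPM. Asp-GTC, the most abundant tRNA, had the widest step in the other direction, from 81.5 at 17 nt to 53.1 at 18 nt. In 13 tRNAs the seed was under 50% viability at 17 nt and not at 18 nt, and in 1 it was the reverse. Arg-TCG, a low tRNA, had the widest step, from 5.1 to 96.5, followed by Val-CAC, whose forms are shown as the more abundant example, with the seed in capitals.
Val-CAC, rank 32: aCCGGGCggaaacacca
Val-CAC, rank 39: aACCGGGcggaaacacca

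The seed of rank 32 had a viability of 9.3 and that of rank 39 had 71.2. Rank 32 stood at 59.0, 193 and 61.5 RPM in WT and 33.3, 209 and 58.1 RPM in Tau tg, with overlapping groups. Rank 39 stood at 81.0, 192 and 96.3 RPM in WT and 46.1, 27.6 and 63.0 RPM in Tau tg, and every WT sample was above every Tau tg sample. Its log2 change was -1.39 ± 0.69 (SE; limma, adjusted p = 0.584), which met an unadjusted threshold of 0.05. It was -1.02 if WT 2 was left out and -1.07 if Tau tg 2 was, and then missed that threshold, as it also did in edgeR and DESeq2.

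Toxic seeds were spread over 60 of the 62 tRNA names. Sequences with a seed viability under 50% numbered 1162 and summed to 2035, 6035 and 5420.5 RPM in WT and to 2538, 4138 and 5493 RPM in Tau tg. Cys-GCA held the most of this RPM in each of the 6 samples, at 13.2% to 16.4%. Tyr-GTA held 6.47% to 16.3%, Glu-CTC 5.74% to 13.8%, Ser-AGA 6.06% to 11.8% and Val-CAC 3.52% to 12.6%, in an order that changed between samples. Together these 5 tRNAs held 45.2% to 62.8%. The lead read of Cys-GCA, with the seed CCGGGU and a viability of 17.9, had 51.5, 206 and 216 RPM in WT and 58.5, 26.8 and 189 RPM in Tau tg. The lead read of Tyr-GTA, with a viability of 35.7, had 23.4, 171 and 114 RPM in WT and 24.6, 95.3 and 160.0 RPM in Tau tg. This read matched a mature tRNA, but 48 of the 127 Tyr-GTA sequences, with 5.36% to 43.2% of its RPM and 1.19% to 15.7% of its toxic RPM, matched only gene entries, and whether these came from mouse Tyr-GTA is uncertain. In neither lead read were the groups apart. The 5′ read of Glu-CTC that ranked 38th, with a viability of 46.1, had 30.9, 239 and 89.0 RPM in WT and 53.1, 63.6 and 45.8 RPM in Tau tg, WT 2 being far above the other samples.

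The share of tRNA fragment RPM with a seed viability under 50% was 21.9%, 17.8% and 16.8% in WT and 19.2%, 19.0% and 14.5% in Tau tg, a difference of -1.29 percentage points (exact permutation test, p = 0.6, adjusted p = 0.9). The mean seed viability was 62.3, 63.9 and 63.9 in WT and 63.1, 63.6 and 66.2 in Tau tg, and the difference of 0.924 did not pass the test (exact permutation test, p = 0.6, adjusted p = 0.9). Both directions rested on Tau tg 3, without which the differences were 0.247 percentage points and -0.0279. The share also turned to 0.244 percentage points without WT 1.

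Across the 6 samples the mean seed viability of tRNA fragments was 63.8 ± 1.32 (SD), against 58.1 ± 0.996 for miRNA reads and 54.8 ± 1.04 for rRNA fragments. It was higher than that of miRNA reads by 3.96 to 8.34 and higher than that of rRNA fragments by 7.29 to 11.9 in 6 of 6 samples (exact sign-flip test, p = 0.03125 and adjusted p = 0.03125 for each). Both differences rested on Asp-GTC. Without this tRNA the mean viability was 54.5 to 58.4, the difference from miRNA reads was -1.82 with p = 0.125 and that from rRNA fragments 1.497 with p = 0.0938 in the same exact test. The seeds of tRNA fragments were 49.4% to 60.1% C, against 20.5% to 24.0% in miRNA reads and 30.6% to 36.5% in rRNA fragments. The main Asp-GTC seeds, CCCCGA and UCCCCG, held 34.7% and 15.2% of the summed tRNA fragment RPM. The C share without Asp-GTC was not computed.

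Single tRNA fragment sequences were then compared between the groups. Of the 3570 sequences 1831 had a mean of at least 1 RPM and were tested within a fit of limma to all 36070 sequences that passed this filter. None of the 1831 passed an adjusted p of 0.05, where 0.0277% of all sequences did, and the smallest adjusted p was 0.355. At an unadjusted p under 0.05, 69 were called, 49 higher and 20 lower in Tau tg. That is 3.77% of the tRNA fragments, against 2.23% of all sequences tested, of which 1.44% were higher and 0.787% lower. The median log2 change was 0.33 for tRNA fragments and -0.16 for all sequences, and it was 0.25 and -0.26 after median-of-ratios scaling. Leaving out WT 1 turned the split to 21 higher and 48 lower, and leaving out Tau tg 2 left 29 calls, of which 1 passed after adjustment. The shares of all sequences called in these fits were not computed, so the shifts cannot be read as particular to tRNA fragments.

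The count models gave other numbers. edgeR called 132 sequences at an unadjusted p under 0.05, 27 higher and 105 lower, and 1 after adjustment. That was 7.21% of the tRNA fragments, against 7.11% of all sequences, of which 0.993% were higher and 6.12% lower, and 0.136% of all sequences passed after adjustment. DESeq2 called 161 unadjusted, 25 higher and 136 lower, and 13 after adjustment. Here it was 9.00% of the tRNA fragments given a p, against 9.41% of all sequences, with 0.732% higher, 8.68% lower and 1.29% past adjustment. The shares called were thus close to the background, and lower calls prevailed among all sequences too. All 14 adjusted calls were at 0 in all 3 Tau tg samples, and 13 of them were seen in a single WT sample, at 37.9 to 48.1 RPM for DESeq2 and at 121 RPM for edgeR.

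Of the 221 tRNA fragments above 0 in all 6 samples, 12 did not overlap between the groups, 8 higher and 4 lower in Tau tg. That is 5.43%, below the 9.31% of all 5832 sequences above 0 in all 6 samples. Only 3 of the 12 had a mean of at least 50 RPM. One was the 18-nt end of Val-CAC above, and the other two were 3′ fragments of tRNAs for alanine and glycine, shown with the CCA in capitals.
Ala-CGC, rank 31: tccccggcatctccaCCAt
Gly-TCC, rank 57: ttcccggccaacgcaCCA

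The Ala-CGC end with an added T had 43.1, 86.1 and 47.7 RPM in WT and 86.9, 268 and 86.7 RPM in Tau tg, so WT 2 lay just below the lowest Tau tg sample. Its log2 change was 1.16 ± 0.67 (SE; limma, adjusted p = 0.584) and missed an unadjusted threshold of 0.05. Leaving out WT 2 gave 1.46, past that threshold, and leaving out Tau tg 2 gave 0.62. The same end without the T had 146, 278 and 296 RPM in WT and 94.3, 295 and 258 RPM in Tau tg and overlapped. The Gly-TCC read had 18.7, 19.7 and 38.5 RPM in WT and 56.9, 51.9 and 155 RPM in Tau tg. The log2 change was 1.63 ± 0.75 (SE; limma, adjusted p = 0.584), past an unadjusted threshold of 0.05. It was 1.13 and missed the threshold if Tau tg 3 was left out, and it missed it in edgeR and DESeq2. All reads of Gly-TCC together had 57.1, 282 and 288 RPM in WT and 200.5, 432 and 541 RPM in Tau tg, which overlapped.

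Summed per tRNA, 3 of the 62 names passed an unadjusted p of 0.05 in limma, 1 higher and 2 lower in Tau tg, against 2.24% of the 9893 RNA species tested, of which 0.718% were higher and 1.53% lower, and none passed after adjustment (smallest adjusted p = 0.585, against 0.0303% of all species). Of the 51 names above 0 in all 6 samples, 3 did not overlap between the groups, where 11.5% of all such RNA species did not. edgeR called 0 of the 62 at either threshold, where 3.92% and 0.142% of all RNA species were called before and after adjustment. DESeq2 called 2 before and 0 after adjustment, where the shares of all species were 7.84% and 1.35%. Arg-ACG, a tRNA for arginine with 9 sequences, was listed at 0 in WT 1 and WT 3 and at 3.39 RPM in WT 2, and had 20.6, 37.6 and 9.41 RPM in Tau tg. A count of 3 reads equals 0.427 to 2.75 RPM in these libraries, so the WT values were near the limit of detection. The log2 change was 3.65 ± 1.46 (SE; limma, adjusted p = 0.585). It was 3.61 if Tau tg 1 was left out and 3.20 if Tau tg 2 was, and then missed the unadjusted threshold.

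Both of the lower names were mitochondrial. mt-Tm, the mitochondrial tRNA for methionine (chrM:3845-3913 on the plus strand, GRCm38, GENCODE M21), had 48.2, 88.1 and 35.8 RPM in WT and 12.4, 1.67 and 15.96 RPM in Tau tg, all 3 WT samples being higher. Its log2 change was -2.69 ± 1.10 (SE; limma, adjusted p = 0.585), and -1.85 if Tau tg 2 was left out, still past the unadjusted threshold. mt-Tr, the mitochondrial tRNA for arginine (chrM:9808-9875 on the plus strand), had 57.1, 40.7 and 17.4 RPM in WT and 11.8, 0 and 10.6 RPM in Tau tg. Here the log2 change was -2.74 ± 1.22 (SE; limma, adjusted p = 0.585). It missed the unadjusted threshold if WT 1, WT 2 or Tau tg 2 was left out, with changes of -2.39, -2.63 and -1.54.

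The 14 mitochondrial tRNAs named by the deposited annotation are all of those that GENCODE places on the plus strand, of 22 mitochondrial tRNA genes. Whether fragments of the other genes were present under another annotation or none was not tested. Together they had 646, 418 and 186 RPM in WT and 347, 178 and 211 RPM in Tau tg, with overlapping groups. WT 1, the sample with the fewest nuclear tRNA fragments, had the most mitochondrial ones. Of the 14 names, 10 had a negative and 4 a positive log2 change, with a median of -0.41, a lowest value of -2.74 and a highest of 1.61, beside the median of -0.35 for all RNA species. Of the 200 sequences 166 matched the GENCODE transcript with CCA added without a mismatch. The 64 that ended at the CCA had 349, 231 and 79.8 RPM in WT and 142, 86.1 and 132 RPM in Tau tg. The 14 that began at the first base of the tRNA had 79.6, 17.6 and 16.5 RPM in WT and 21.3, 5.02 and 4.5 RPM in Tau tg, and 69 lay inside it. The most abundant of the mitochondrial sequences, chosen after their values were seen, are shown with the CCA in capitals because nothing follows it.
mt-Th: ctccttattcaccCCA
mt-Tv: caatgaacactctgaCCA

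The mt-Th read came from the gene at chrM:11546-11612 and had 29.0, 27.8 and 0.917 RPM in WT and 15.2, 16.7 and 0.409 RPM in Tau tg. The mt-Tv read came from the gene at chrM:1025-1093 and had 54.8, 2.71 and 6.42 RPM in WT and 4.70, 1.67 and 3.68 RPM in Tau tg. In both reads the groups overlapped, and a single WT 1 value lay above the rest for mt-Tv. Their seeds had viabilities of 85.4 and 86.5, above the values of the nuclear ends shown. This did not hold for mitochondrial fragments in general. The next mitochondrial sequence by level, from mt-Tr, had a seed viability of 75.8, below the 82.3 of Ala-TGC. Weighted by RPM, the mean viability per mitochondrial name ran from 36.1 in mt-Tl1 to 86.8 in mt-Tl2.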

How the data were processed

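Ago-bound short RNAs of 3 WT and 3 Tau tg mouse brains were analysed, and groups and replicate numbers came from the sample titles. The authors trimmed reads with Trim Galore (version not given in the sources used here), built a table of unique sequences with the SPOROS pipeline, removed rare reads, searched the rest with BLAST against small RNA lists and removed artificial sequences. Removal of rare reads makes low levels incomplete, and the BLAST names decide which reads count as tRNA. The deposited RPM values are reads scaled by the authors to the library size of each sample. Whole reads were recovered for count models from the size of 1 read. The deposited viability score per 6mer seed, averaged by the authors over 3 murine cell lines, was used as given. Rows at 0 in every sample, 44347 of 109434, were not used.

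An exact permutation test (two-sided, 20 assignments, Benjamini-Hochberg adjustment over 6 measures) was applied to the summary measures, and RNA classes were compared with exact sign flips over the 6 samples, adjusted over 4 comparisons. Sequences and RNA species with a mean of at least 1 RPM were tested with limma 3.58.1 with trend on log2(RPM + 1), which understates changes of low rows. Alternatives included count models on the recovered reads (DESeq2 1.42.0, edgeR 4.0.16), pseudocounts of 0.1 and 5, no filter or 10 RPM, median-of-ratios scaling, no trend, a replicate block and leaving out each mouse. The limma step was tested on simulated data with the same fixed dispersion for every row, which does not show how it performs at the spread of these mice. Software comprised SciPy 1.17.1, pandas 2.3.3 and NumPy 2.4.6 in Python 3.11.15, and R 4.3.3. Named were the 10 most abundant tRNAs, the 12 most abundant sequences, sequences passing adjustment, up to 5 tRNAs in each direction with p under 0.05 and a mean of at least 10 RPM, up to 3 sequences in each direction without overlap and a mean of at least 50 RPM, the 8 listed sources of long 5′ fragments and the mitochondrial tRNAs. Members, lists and tests were chosen with earlier results of these data known. Nothing links the mice to separate litters or batches, so the exact tests measure the spread between these samples. The limma p-values and SEs lean on a variance shared across rows. Without the trend the SE was 1.37 for each of the 10 most abundant tRNAs. The limma SEs given after ± are therefore not the spread of the named row alone.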

Additional observations from a re-analysis of the deposited data

How the results depend on the processing

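The 4 comparisons with other RNA classes kept their direction when any mouse was left out, where the exact test on 5 samples cannot reach 0.05, and with a 1 RPM minimum or without the most abundant sequence of each class. Without Asp-GTC, an alternative added after the data were seen, the viability difference from miRNA reads was -1.82, that from rRNA fragments 1.497 and the length difference from rRNA fragments -0.86 nt, and none of these passed 0.05. The length difference from miRNA reads passed without Asp-GTC too (-2.35 nt).

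The exact test on the summary measures of WT and Tau tg cannot reach 0.05 under any alternative tried. Leaving out single mice gave differences of -8759 to 4727 RPM in total, -0.113 to 0.223 nt in length, -0.0056 to 0.0331 percentage points in reads of 28 to 30 nt, -0.0279 to 1.53 in mean viability and -2.32 to 0.247 percentage points in the share under 50% viability. The length difference was also negative with a 1 RPM minimum (-0.0302 nt), for reads of 19 to 25 nt (-0.189 nt) and without Asp-GTC (-0.0289 nt). The CCA share turned to 2.54 percentage points when added bases were allowed. Limiting the summary measures to members that name no other RNA class left out 0 sequences.

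The 69 unadjusted sequence calls became 37 with a pseudocount of 5, 10 with a 10 RPM minimum (fewer sequences tested), 132 in edgeR, 161 in DESeq2 and 132 without both WT 1 and Tau tg 1, and ranged from 29 to 78 when 1 mouse was left out. Adjusted calls were 1 in edgeR, 13 in DESeq2 and 0 to 1 when 1 mouse was left out. The 3 tRNAs called became 0 in edgeR, 1 without both WT 1 and Tau tg 1, and 3 to 5 when 1 mouse was left out. For edgeR and DESeq2 the shares of all sequences and RNA species are given above. For the other alternatives they were not computed, so these counts cannot be read as particular to tRNA fragments. The causes were not tested.

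Of the 10 most abundant tRNAs, several changed sign between alternatives, none with a passing test. Median-of-ratios scaling gave -0.015 for Asp-GTC, -0.074 for Leu-AAG, -0.14 for Cys-GCA and -0.11 for Ala-CGC. DESeq2 gave -0.14 for Asp-GTC, -0.044 for Leu-AAG and -0.065 for Cys-GCA, and edgeR 0.0052 for His-GTG, 0.0029 for Glu-CTC and 0.24 for Tyr-GTA. Without both WT 1 and Tau tg 1, Asp-GTC was at -0.37, Leu-AAG at -0.071 and Cys-GCA at -0.10. When 1 mouse was left out, the changes ranged from -0.81 to 0.62 for Asp-GTC, -0.46 to 0.47 for Leu-AAG, -0.69 to 0.28 for His-GTG, -0.070 to 0.92 for Ala-TGC, -0.39 to 0.31 for Cys-GCA, -0.74 to 0.45 for Glu-CTC, -0.56 to 0.18 for Val-CAC, -0.26 to 0.36 for Ala-CGC, -0.66 to 0.55 for Tyr-GTA and -0.010 to 0.94 for Pro-CGG.

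For mice with the same number, the deviations from the group means correlated at 0.0257, 0.0071 and 0.0068 over all sequences. With 3 mice per group these correlations cannot show whether such mice shared a batch or a preparation, which was not tested. The tRNA fragment total was lowest in WT 1 and Tau tg 1 (9296 and 13228 RPM) of their groups. It was highest in WT 2 and Tau tg 3 (33826 and 37955 RPM), which differ in number. With a replicate block the fit called 74 sequences and 4 tRNAs unadjusted and 0 after adjustment. The shares of all sequences and RNA species in that fit were not computed. WT 1, WT 2 and WT 3 did not each correlate best with the Tau tg mouse of the same number. The blocked exact test on the summary measures, which cannot go below 0.25, gave p of 0.25 to 1.

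The libraries held 998248 to 6879551 reads, so 3 reads equal 0.427 to 2.75 RPM, and the deepest held the most tRNA fragment sequences (1698). Rare reads had been removed, and DESeq2 gave a p-value for 1789 of 1831 sequences. No nuclear tRNA sequences were used as a reference, so the bases after a nuclear CCA were read against the CCA-ended reads of the same tRNA.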
